A study of Homo sapiens with 6 samples.

Results

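Tight junctions seal the space between neighbouring epithelial cells. The expression of 9 genes that build them was compared between libraries labelled control and libraries labelled RN7SK-KO: the claudin genes CLDN1, CLDN2, CLDN3, CLDN4, CLDN7 and CLDN12, the occludin gene OCLN, and TJP1 and TJP3, which encode the scaffold proteins ZO-1 and ZO-3. The genes were taken by symbol, and all 9 had a row among the 16779 genes of each table. The study holds 6 RNA-seq libraries, all labelled A549, which is an established human line of lung adenocarcinoma cells. The control group comprised 3 libraries with the genotype WT, and the RN7SK-KO group comprised 3 libraries with the genotype RN7SK knockout. RN7SK encodes the 7SK small nuclear RNA, which restrains the transcription elongation kinase P-TEFb. The sources used here do not say how the gene was disrupted, whether 1 clone or several were used, or whether the libraries of a group came from separate cultures, so the p-values measure the spread between these libraries, which may be technical.

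Claudins are membrane proteins that span the membrane repeatedly and pair across the gap between cells. Some tighten the barrier and others form pores for ions and water, so the mix of claudins in a cell sets what its junctions let through. Occludin is a further membrane protein of the strand, and the ZO proteins bind the inner ends of claudins and occludin and tie them to the actin skeleton. In the alveolar epithelium of the lung, the claudins described most are CLDN3, CLDN4 and CLDN18.

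Total counts ranged from 16018260 to 19357144 per library. With 0 rows for RN7SK in these tables, the target itself offers no check of the knockout label. CDKN2A, a gene that A549 cells are known to have lost, had 923 to 1005 counts in the control libraries and 0 to 2 counts in the RN7SK-KO libraries, which goes against the cell line named for the control group. Each direction below is therefore that of the libraries labelled RN7SK-KO against the libraries labelled control. If the groups differ in cell line, that difference and the knockout cannot be told apart in any result below. The words rose and fell describe only the difference between the labelled groups. Of 7 epithelial marker genes, the keratin genes KRT7, KRT8 and KRT18, CDH1 and MUC1 were tested on counts. All 5 rose, and 42.0% of all tested genes were called higher. For MUC1 the deposited FPKM went the other way, from 6.01 ± 0.391 to 5.73 ± 0.625, with gene lengths of 1838 bases in the control and 4070 bases in the RN7SK-KO tables. Their list summed to 3299 to 3514 CPM (counts scaled to the size of the library) in the control libraries and 5973 to 6084 CPM in the RN7SK-KO libraries. The epithelial markers EPCAM and KRT19 were nearly absent from both groups, with 6 to 12 and 0 to 2 counts per library. Of the alveolar markers, SFTPA1 and SFTPB were at 0 in every library, and LAMP3 and NAPSA were tested and rose (edgeR adjusted p = 4.91e-06 and 0.0217). SFTPC, SFTPD and NKX2-1 were too low to test, with 2, 0 and 1 counts over the control group and 8, 11 and 25 over the RN7SK-KO group. The list of 7 genes with rows summed to 1.68 to 3.14 CPM in the control and 5.78 to 6.56 CPM in the RN7SK-KO libraries.

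The region upstream of a RefSeq start is shown for CLDN1 and TJP3, the tested members with the largest fall and the largest rise. Sequences are from RefSeq (GRCh38.p14), on the strand of the gene, and stop where GENCODE marks untranslated exon sequence. That of CLDN1 is 221 bases (chr3:190322476-190322696, minus strand) and that of TJP3 is 250 bases before the second of its 2 RefSeq starts (chr19:3721487-3721736, plus strand). Capitals mark CAGGTG, the E-box that SNAI1 and ZEB1 are known to bind, searched on both strands as CAGGTG and CACCTG. The choice between the 2 starts of TJP3 followed no stated rule, and the window before its first start does not hold the E-box.
CLDN1: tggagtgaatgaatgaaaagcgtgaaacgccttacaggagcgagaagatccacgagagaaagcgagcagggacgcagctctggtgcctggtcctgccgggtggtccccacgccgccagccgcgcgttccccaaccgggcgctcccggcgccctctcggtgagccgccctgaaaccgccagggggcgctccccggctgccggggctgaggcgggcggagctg
TJP3: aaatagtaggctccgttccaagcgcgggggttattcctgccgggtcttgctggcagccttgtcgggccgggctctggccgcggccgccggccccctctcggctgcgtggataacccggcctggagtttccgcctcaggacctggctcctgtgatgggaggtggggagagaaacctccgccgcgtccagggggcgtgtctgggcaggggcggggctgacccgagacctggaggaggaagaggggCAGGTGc
All 9 members had at least 1 window in the RefSeq table, 16 windows in all. In the full window of 250 bases, 5 of the 16 held the E-box, which was present in 17.5% of all 35116 windows of the same length. CLDN7 had 4 matches, which begin at -174, -135, -20 and -9 from its second listed start, and none before its first. The window with these matches lies inside the span of the gene. OCLN had 1 in each of its 2 windows, the second of which lies mostly inside the span of the gene. TJP1 had 1 at -88 from its first listed start. TJP3 had 1 at -7 from its second listed start, which lies inside the span of the gene, and none before its first. No window of CLDN1, CLDN2, CLDN3, CLDN4 or CLDN12 held these letters. The GC content of the windows ran from 34.8% in one of TJP1 to 71.6% in that of CLDN3, beside a median of 58% over all windows. A match is a description of the letters, and binding was not measured.

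The claudin with the highest level, CLDN1, was much lower in the RN7SK-KO libraries. CLDN1 is a barrier-forming claudin found in many epithelia (chromosome 3, 190305707 to 190322446, GRCh38). It had 823, 843 and 816 CPM in control replicates 1 to 3 and 121, 116 and 119 CPM in RN7SK-KO replicates 1 to 3. The groups lay far apart, and the libraries within each differed by little (SD 13.9 and 2.65 CPM, n = 3 each). CLDN1 thus fell 6.96-fold (edgeR log2 fold change -2.80 ± 0.044, estimate ± SE, adjusted p = 2.28e-33). The plot of CPM by library shows this gap beside the other genes. In bulk RNA, fewer cells that express a gene and less RNA per cell cannot be told apart.

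**Figure D1:**
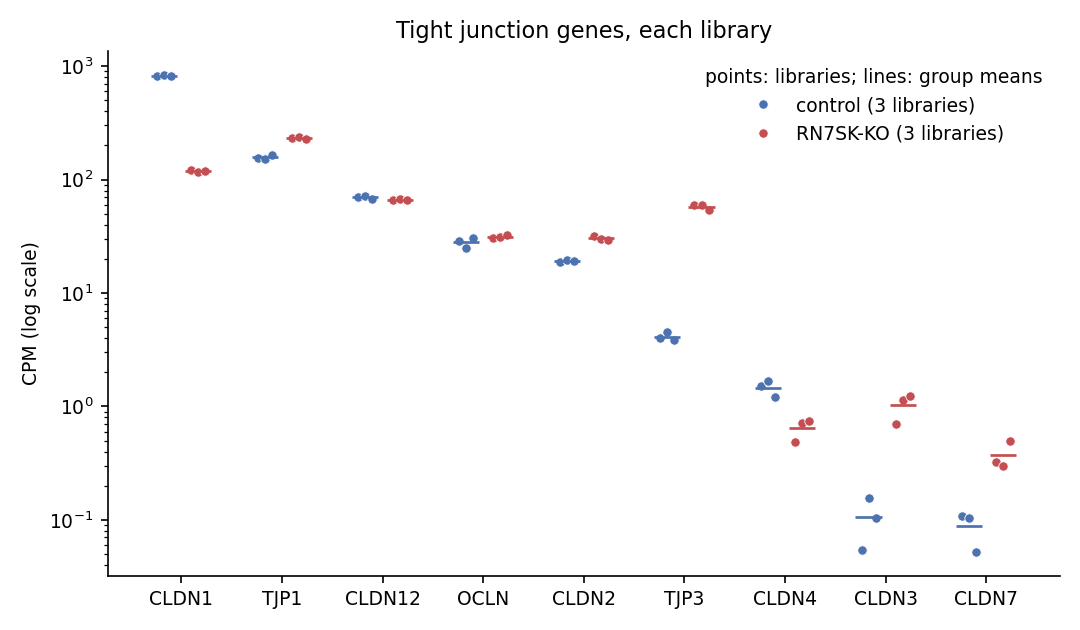
CPM (log axis) of the 9 tight junction genes in each library, ordered by their control mean; points are libraries, 3 per group, and lines are group means. CLDN1 lies at 816 to 843 CPM in the control and 116 to 121 CPM in the RN7SK-KO libraries, TJP3 moves the other way, and CLDN3, CLDN4 and CLDN7 lie below 2 CPM throughout.

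Among all 12929 tested genes, 85.0% passed the edgeR test at an adjusted p of 0.05, 42.0% as higher and 43.0% as lower, so a call by itself does not set a gene apart. Of the 9 members, 8 were tested: CLDN2, CLDN3, OCLN, TJP1 and TJP3 were called higher, CLDN1 and CLDN4 lower, CLDN12 was not called, and CLDN7 had too few counts to be tested. The CPM of the groups did not overlap for any of the 9, as for 85.6% of the tested genes. Against a log2 fold change of 1 (glmTreat), the difference of CLDN1, CLDN3 and TJP3 passed, 3 of the 8 tested, where 27.5% of all tested genes passed. The median log2 fold change was 0.36 over the 8 tested members and -0.01 over all tested genes. CLDN3 reached the low-count filter in 0 control and 3 RN7SK-KO libraries, and CLDN4 in 3 control and 2 RN7SK-KO libraries. As CLDN3 entered the test only through the group where it is high, these counts and the median describe the members and support nothing further.

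CLDN2, which forms a pore for cations and water, was moderately higher in the RN7SK-KO libraries (chromosome X, 106900164 to 106930861). Its CPM were 18.7, 19.5 and 19 in the control and 31.9, 29.7 and 29.5 in the RN7SK-KO libraries. The lowest RN7SK-KO library lay above the highest control library by more than the range within either group. CLDN2 rose 1.59-fold (log2 fold change 0.67 ± 0.074, edgeR adjusted p = 4.77e-10). Its GENCODE span overlaps MORC4 and RIPPLY1 on the opposite strand, and whether the counting used strand is not given in the sources used here.

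CLDN12, an atypical claudin that lacks the ZO-binding end of most others, hardly differed (chromosome 7, 90403461 to 90415954). It had 69.8, 72 and 67.5 CPM in the control and 66.6, 67.3 and 65.6 CPM in the RN7SK-KO libraries. The highest RN7SK-KO library lay just under the lowest control library, by less than the range within either group. The difference did not pass (log2 fold change -0.07 ± 0.054, edgeR adjusted p = 0.227), and it was 0.01 on log2(FPKM + 0.1), where the sign is reversed. GTPBP10 and CDK14 lie on the same strand over part of the GENCODE span of CLDN12. Overlap with the RefSeq span given above was not examined.

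The barrier claudins CLDN3, CLDN4 and CLDN7, which are typical of glandular and airway epithelia, had few counts in both groups. CLDN3 had 1, 3 and 2 counts in the control and 13, 19 and 20 counts in the RN7SK-KO libraries. The sums of 6 and 52 counts give a ratio of 9.53 of RN7SK-KO to control (95% exact counting interval 4.10 to 27.2), and the fitted log2 fold change was 3.17 ± 0.53 (edgeR adjusted p = 1.90e-06). The level reached was still only 1.02 ± 0.283 CPM (n = 3). The fitted size depends on the few control counts: it was 3.55 without control replicate 2, 2.30 on log2(FPKM + 0.1) and 0.73 on log2(FPKM + 1).

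CLDN4 had 28, 32 and 23 counts in the control and 9, 12 and 12 counts in the RN7SK-KO libraries, so every RN7SK-KO library was under every control library. It fell 2.27-fold (log2 fold change -1.18 ± 0.32, edgeR adjusted p = 0.00124), with a ratio of the summed counts of control to RN7SK-KO of 2.29 (95% exact counting interval 1.51 to 3.53). On the FPKM scale with 1 added, the log2 difference was -0.37. CLDN3 and CLDN4 are neighbours on chromosome 7, transcribed away from each other (CLDN3 at 73768997 to 73770270, CLDN4 at 73830996 to 73832690), yet their calls had opposite signs. Per length, CLDN3 was 0.104 ± 0.046 of CLDN4 in the control libraries and 2.08 ± 0.149 of CLDN4 in the RN7SK-KO libraries (ratio of FPKM, mean ± SD, n = 3).

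CLDN7, which is known to bind EPCAM at the sides of epithelial cells, had 2, 2 and 1 counts in the control and 6, 5 and 8 counts in the RN7SK-KO libraries (chromosome 17, 7259903 to 7263213). The summed ratio of RN7SK-KO to control was 4.18 (95% exact counting interval 1.51 to 14.3), which covers counting error only. When no low-count filter was applied, CLDN7 passed (log2 fold change 1.96 ± 0.81, edgeR adjusted p = 0.021). In that setting 5894 of 16028 tested genes were called higher and 5838 lower, so the call does not set CLDN7 apart. Its recovered gene length was 2044 bases in the control tables and 1597 bases in the RN7SK-KO tables. In GENCODE, ELP5 overlaps it on the opposite strand.

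Occludin showed the smallest called difference. OCLN (chromosome 5, 69492547 to 69558104) had 28.6, 24.8 and 30.3 CPM in the control and 30.7, 31.0 and 32.4 CPM in the RN7SK-KO libraries. Control replicate 2 was the lowest library, and control replicates 1 and 3 lay close to the RN7SK-KO values. The log2 fold change was 0.17 ± 0.074 (edgeR adjusted p = 0.0372). The call was lost without control replicate 2 (log2 fold change 0.08, adjusted p = 0.27), with DESeq2 (adjusted p = 0.0624), and when any library but control replicate 3 was left out. Adjusted p ranged from 0.00576 to 0.27 over 15 other settings. A partial copy of OCLN is known on the same chromosome, and reads may be shared with it.

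TJP1 and TJP3 both rose, by very different amounts. TJP1, the ZO protein found in nearly all epithelial and endothelial cells, had 155, 153 and 164 CPM in the control and 232, 236 and 227 CPM in the RN7SK-KO libraries (chromosome 15, 29699367 to 29969049). All RN7SK-KO libraries lay above all control libraries, and TJP1 rose 1.47-fold (log2 fold change 0.56 ± 0.044, edgeR adjusted p = 1.65e-13). TJP3, whose product ZO-3 is largely confined to epithelia, had 4.0, 4.5 and 3.87 CPM in the control and 59.5, 59.8 and 53.6 CPM in the RN7SK-KO libraries (chromosome 19, 3708384 to 3750813). The groups lay far apart, and this was the largest rise among the tested members, 14.0-fold (log2 fold change 3.80 ± 0.091, edgeR adjusted p = 3.01e-28).

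Relative to TJP1, TJP3 was therefore far more abundant in the RN7SK-KO libraries. Per length, TJP3 was 0.0695 ± 0.0078 of TJP1 in the control and 0.669 ± 0.03 in the RN7SK-KO libraries (ratio of FPKM, mean ± SD, n = 3).

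The FPKM tables of the groups were made with gene lengths that differ for many genes, so lengths were compared for the members. The lengths of 7 members differed by less than 5%, from equal lengths of 1274 bases for CLDN3 to 6576 and 6321 bases for OCLN. CLDN4 had 1831 bases in the control and 1695 in the RN7SK-KO tables, and that of CLDN7 differed by -21.9%. With the lengths as an offset in the fit, CLDN1 had a log2 fold change of -2.85, TJP3 of 3.78, TJP1 of 0.51 and CLDN2 of 0.63, and the same 7 members were called. The plot of fold changes on 3 scales sets these values beside those from counts and FPKM.

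**Figure D2:**
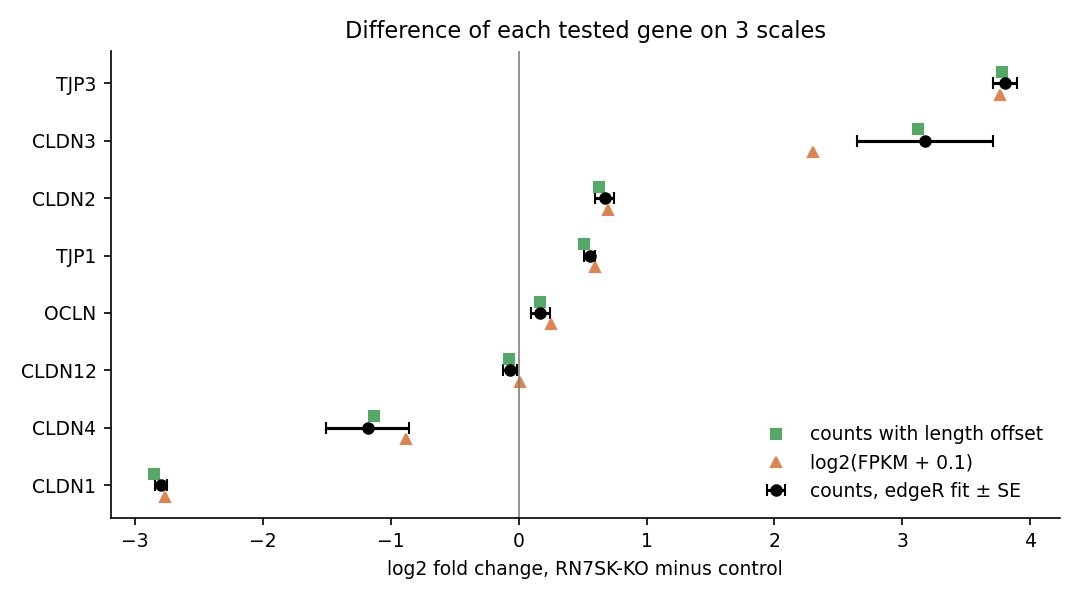
Log2 fold change (RN7SK-KO minus control) of the 8 tested members from the edgeR fit on counts (black, ± SE), from the same counts with gene lengths as an offset (green squares) and from log2(FPKM + 0.1) (orange triangles). The scales lie close together for CLDN1, TJP3, TJP1 and CLDN2, CLDN12 lies at 0, and the low-count genes CLDN3 and CLDN4 have wide errors and shrink on the FPKM scale.

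Levels of different genes were compared per length, on the deposited FPKM. In the control group the order was CLDN1 (233 ± 3.92 FPKM, mean ± SD, n = 3), CLDN12 (18.5), TJP1 (17.4), CLDN2 (5.40), OCLN (4.13), TJP3 (1.20), CLDN4 (0.778), CLDN3 (0.0803) and CLDN7 (0.0421). CLDN12 and TJP1 overlapped between libraries, as did CLDN3 and CLDN7, and the other neighbours did not. In the RN7SK-KO group the order was CLDN1 (34.2 ± 0.824 FPKM), TJP1 (26.3), CLDN12 (18.7), TJP3 (17.6), CLDN2 (8.82), OCLN (4.92), CLDN3 (0.796), CLDN4 (0.378) and CLDN7 (0.231), and only CLDN4 and CLDN7 overlapped. CLDN1 stayed first in both groups, while its distance from CLDN12 narrowed from a FPKM ratio of 12.6 ± 0.211 to 1.83 ± 0.057. The summed FPKM of the 9 members was 281 ± 3.88 in the control and 112 ± 1.02 in the RN7SK-KO libraries, of which CLDN1 made up 83.1% ± 0.25 and 30.6% ± 0.724. TJP1 and TJP3 made up 6.19% and 0.428% of the sum in the control and 23.5% and 15.7% in the RN7SK-KO libraries. On CPM per kilobase with the control lengths for both groups, the share of CLDN1 in the RN7SK-KO libraries was 31.0%.

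Over all 18 claudin genes with a row, of which 3 were at 0 in every library, CLDN1 stayed first in both groups but with a smaller share. CLDN1 made up 80.8% ± 0.417 of the summed claudin FPKM in the control libraries and 42.9% ± 0.428 in the RN7SK-KO libraries (mean ± SD, n = 3). CLDN11, the claudin of myelin and of the testis barrier, was second in the control libraries with 8.15% ± 0.385 and had 0.103% ± 0.074 in the RN7SK-KO libraries. The share of CLDN12 went from 6.42% ± 0.075 to 23.4% ± 0.503, although its own level did not pass the test. CLDN15, which forms a sodium pore in the gut, went from 1.64% ± 0.101 to 13.9% ± 0.59, CLDN2 from 1.87% ± 0.03 to 11.1% ± 0.352, and CLDN23 from 0.438% ± 0.023 to 6.56% ± 0.402. The summed claudin level was 289 ± 6.13 FPKM in the control and 79.7 ± 1.15 FPKM in the RN7SK-KO libraries, and CLDN1 accounts for most of that difference. As shares of 1 sum, they rise for some genes when CLDN1 falls.

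**Figure D3:**
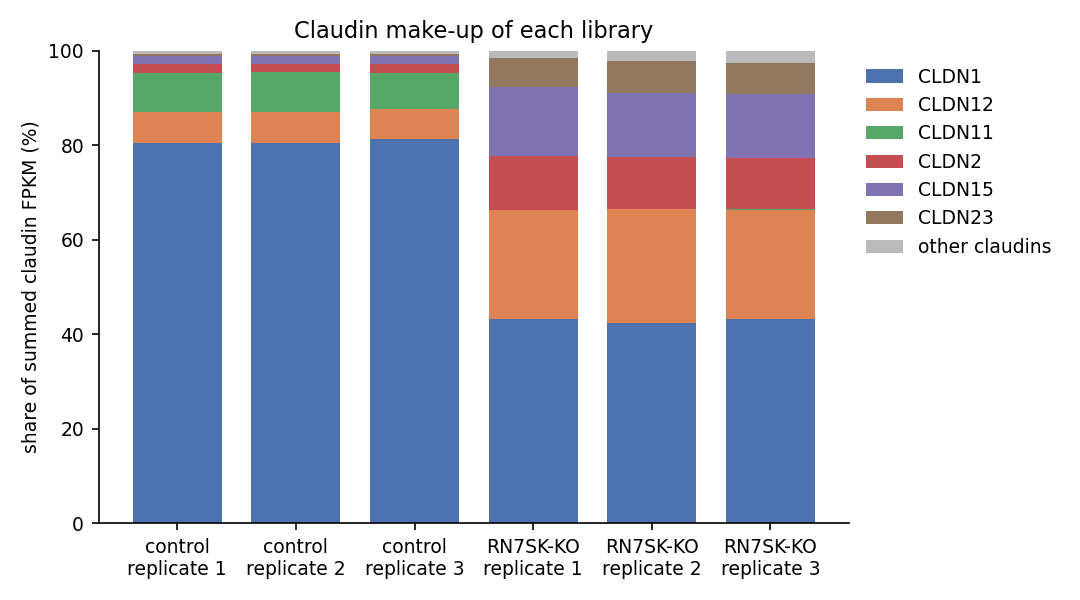
Share of each claudin gene in the summed claudin FPKM of each library (%, bars stacked to 100), with the 12 claudins of lowest level joined as other claudins. CLDN1 takes 80.5% to 81.3% of the control bars and 42.4% to 43.2% of the RN7SK-KO bars, and CLDN11 is visible only in the control bars.

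The other claudin genes moved in both directions. Of 18 listed, 12 had a row and 5 were tested, of which 2 rose and 3 fell (85.0% of all tested genes were called). CLDN11 had 1304, 1392 and 1226 counts in the control and 3, 2 and 7 counts in the RN7SK-KO libraries, a summed ratio of control to RN7SK-KO of 297 (95% exact counting interval 170 to 576; edgeR adjusted p = 6.34e-31). CLDN14, known from the inner ear and kidney, had 39, 37 and 43 counts in the control and 0 in each RN7SK-KO library, and so was at least 36.1-fold lower, taking 3 counts over the group as the floor. CLDN16, a claudin of the kidney that is needed for magnesium uptake, had 19, 17 and 16 counts in the control and 2, 2 and 1 counts in the RN7SK-KO libraries (edgeR adjusted p = 2.91e-06). The 3 that fell, CLDN11, CLDN14 and CLDN16, entered the test only through the control libraries, where they are high. CLDN15 rose from 10.9 ± 0.454 to 23.5 ± 1.31 CPM (log2 fold change 1.12 ± 0.089, edgeR adjusted p = 1.49e-13) and CLDN23 from 2.54 ± 0.185 to 11.4 ± 0.549 CPM (2.16 ± 0.143, adjusted p = 1.14e-15). The lung claudin CLDN18 and the endothelial claudin CLDN5 had no row and were not analysed here.

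Other membrane proteins of the junction were as divided. Of 12 genes, 10 were tested, of which 4 rose, 4 fell and 2 did not pass (85.0% of all tested genes were called). The tricellular junction genes MARVELD2 (tricellulin) and LSR (angulin-1) both fell, from 19.1 ± 0.827 to 7.94 ± 0.526 CPM and from 65.4 ± 1.04 to 21.2 ± 1.53 CPM (log2 fold change -1.27 and -1.63, edgeR adjusted p = 1.53e-13 and 1.16e-21). ILDR2 (angulin-3) rose, from 5 counts over the control group to 109 over the RN7SK-KO group (log2 fold change 4.48 ± 0.456, adjusted p = 7.18e-11), as did the apical polarity gene CRB3 (log2 fold change 2.71 ± 0.236, adjusted p = 1.51e-12). The other called genes were JAM3, JAM2 and MARVELD3. JAM3 rose from 25, 19 and 48 counts to 62, 66 and 44 counts (log2 fold change 1.04 ± 0.256, edgeR adjusted p = 0.000504). Its control libraries varied widely (1.62 ± 0.792 CPM), and it did not pass against a log2 fold change of 1 (glmTreat adjusted p = 0.627). JAM2 fell (log2 fold change -3.54), and MARVELD3 rose from 1, 0 and 0 counts to 11, 9 and 14 counts. ILDR2 and MARVELD3, like CLDN3, entered the test only through the RN7SK-KO libraries, and JAM2 only through the control libraries. F11R, which encodes the junctional adhesion molecule JAM-A, had 57.7 ± 2.07 and 57.6 ± 2.52 CPM (n = 3 each) and a log2 fold change near 0 (SE 0.058, edgeR adjusted p = 0.957). The virus receptor gene CXADR was not called on counts either (0.05, adjusted p = 0.503). Its deposited FPKM were 3.43 ± 0.177 and 5.47 ± 0.416, with gene lengths of 9448 bases in the control and 6256 bases in the RN7SK-KO tables.

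ESAM, an adhesion molecule of endothelial junctions, fell from 110 ± 2.62 to 2.92 ± 0.238 CPM (log2 fold change -5.23 ± 0.085, edgeR adjusted p = 6.72e-33). It is also among the endothelial markers, of which 9 of 10 had a row and 4 were tested (ESAM, ENG, CDH5 and ROBO4). All 4 fell, and 43.0% of all tested genes were called lower. ENG, CDH5 and ROBO4 entered the test only through the control libraries, where they are high, so their falls support nothing further. The endothelial list summed to 162 to 175 CPM in the control and 4.19 to 4.92 CPM in the RN7SK-KO libraries. The other markers were too low to test: PECAM1 had 2 counts over the control group and 7 over the RN7SK-KO group, VWF 0 and 8, TEK 1 and 7, and KDR 5 and 32. TIE1 was at 0 in every library. Fibroblast markers summed to 3.62 to 4.56 CPM in the control and 12.9 to 14.6 CPM in the RN7SK-KO libraries. Haematopoietic markers summed to 4.92 to 5.28 CPM and 10.8 to 13.1 CPM. The part of other cell types in these results was not tested.

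Among the inner scaffolds and polarity proteins, 20 of 21 listed genes were tested. Of these, 8 rose, 9 fell and 3 did not pass (85.0% of all tested genes were called). Of the PAR6 genes, PARD6B and PARD6G fell, from 51.6 ± 2.71 to 12.9 ± 1.38 CPM and from 10.7 ± 0.462 to 2.01 ± 0.312 CPM (log2 fold change -2.01 and -2.42, edgeR adjusted p = 4.12e-22 and 5.89e-16). PARD6A was not called (log2 fold change -0.22 ± 0.151, adjusted p = 0.181). Their partner in the PAR complex, PARD3, rose from 166 ± 3.29 to 258 ± 2.29 CPM (0.63 ± 0.043, adjusted p = 2.12e-15). PARD3B, a paralog of PARD3, rose by 3.10 ± 0.158 on the log2 scale (adjusted p = 7.75e-19). AMOT, an angiomotin that binds polarity scaffolds, fell from 12.9 ± 0.487 to 1.26 ± 0.109 CPM (-3.35 ± 0.161, adjusted p = 1.69e-19). Its paralog AMOTL2 rose (0.58 ± 0.048, adjusted p = 5.16e-13), and AMOTL1 was not called (-0.10 ± 0.063, adjusted p = 0.133). CGN, which encodes the ZO-binding protein cingulin, fell slightly (log2 fold change -0.30 ± 0.111, adjusted p = 0.0124). Its paralog CGNL1 rose from 29 counts over the control group to 242 over the RN7SK-KO group (log2 fold change 3.18 ± 0.262, adjusted p = 3.69e-13). CGNL1 entered the test only through the RN7SK-KO libraries, where it is high.

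**Figure D4:**
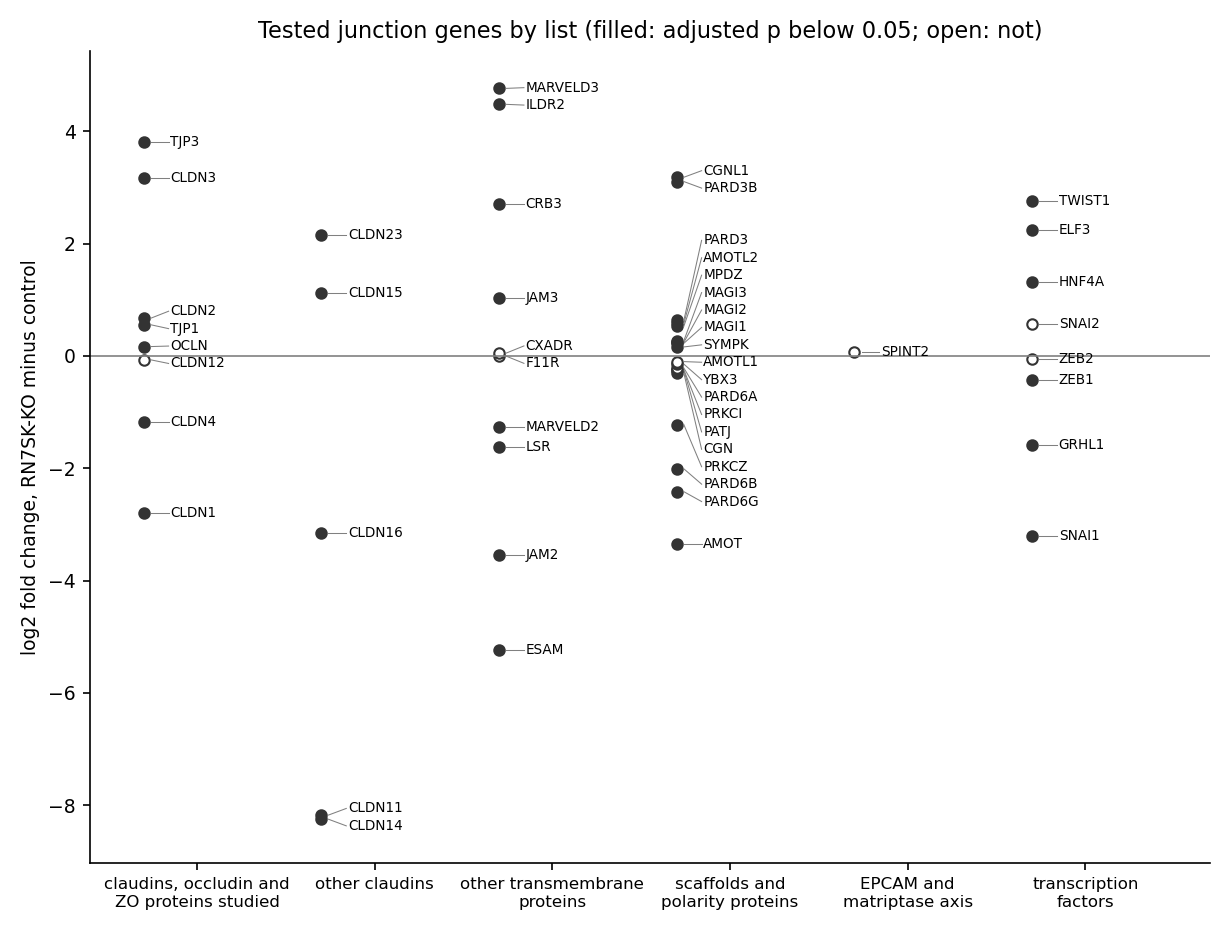
Log2 fold change (RN7SK-KO minus control) of tested genes in the list of 9 genes and in 5 lists of other junction genes; filled points passed the edgeR test and open points did not. Every list with more than 1 tested gene holds genes on both sides of 0; CLDN14, at 0 counts in the RN7SK-KO libraries, is drawn at its fitted value, which depends on the prior count.

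EPCAM, which stabilises CLDN7 at the membrane, had 12, 9 and 9 counts in the control and 8, 9 and 6 counts in the RN7SK-KO libraries and was too low to test. Of the 5 genes of the EPCAM and matriptase axis only the protease inhibitor gene SPINT2 was tested, at 362 ± 12.8 and 380 ± 5.08 CPM (edgeR adjusted p = 0.116). Of 12 transcription factors known to act on junction genes, 8 were tested. Of these, 3 rose and 3 fell (85.0% of all tested genes were called). SNAI1, a repressor of CDH1 and claudin genes, fell from 9.86 ± 1.17 to 1.05 ± 0.33 CPM (log2 fold change -3.20 ± 0.194, edgeR adjusted p = 1.03e-16). TWIST1, which is linked to the loss of epithelial junctions, rose from 1.80 ± 0.433 to 12.2 ± 0.655 CPM (2.76 ± 0.158, adjusted p = 2.28e-17). The epithelial factor gene ELF3 rose from 69.5 ± 2.51 to 330.0 ± 2.52 CPM (2.25 ± 0.046, adjusted p = 4.64e-30), HNF4A rose by 1.31 and GRHL1 fell by 1.58 on the log2 scale. ZEB1, another repressor of epithelial genes, fell (log2 fold change -0.42 ± 0.067, adjusted p = 7.77e-07), and ZEB2 and SNAI2 were not called (-0.05 and 0.57, adjusted p = 0.712 and 0.18). GRHL2, a known activator of CLDN4, had 3, 0 and 0 counts in the control and 0 in each RN7SK-KO library. A relation between these factors and the 9 genes was not tested.

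Over the 5 lists together, 44 of 61 genes with a row were tested, of which 17 rose, 19 fell and 8 did not pass (median log2 fold change -0.03). That is a share of calls close to the 85.0% of all tested genes.

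The genes whose pattern over the 6 libraries was most like that of TJP3 were LOC105373989, NTRK3, FAM189A1, KANK2 and IFITM10, by Euclidean distance of log2 CPM centred on each gene's mean (0.164 to 0.308). NTRK3, a neurotrophin receptor gene, went from 9.32 to 118 CPM and KANK2 from 7.42 to 103 CPM. With 2 groups, this likeness mostly measures a similar difference between the groups.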

How the data were processed

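Per the labels' protocols, total RNA was extracted with TRIzol and libraries were made with an mRNA kit. Per the submitters' processing notes, HISAT2 2.2.1.0, Trimmomatic 0.36, FastQC 0.11.5 and GRCh38 are named. Which counter, annotation and strand setting were used is not given in the sources used here. For each library the authors deposited whole-number read counts per gene symbol and a table of FPKM (fragments per kilobase of gene, scaled to the library). Dividing counts by FPKM gave back the gene lengths used, which were whole within 0.02 bases for nearly all genes; of 14582 genes with a length in both groups, 32.2% agreed within 1%.

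Counts were fitted over all genes in R 4.3.3 with edgeR 4.0.16: filterByExpr by group, trimmed mean of M values (factors 0.989 to 1.02), glmQLFit (robust) and glmQLFTest, two-sided, Benjamini-Hochberg adjusted over 12929 tested genes, threshold 0.05. CPM use the same factors. Depth was 16018260 to 19357144 counts per library; counting intervals are 95% and exact, and these and the floor of 3 counts cover counting error only. The fit was also run on simulated counts in which most genes did not differ, unlike in these data. Alternatives were DESeq2 1.42.0, other scalings and filters, limma 3.58.1 on log2(FPKM + 0.1) and log2(FPKM + 1), recovered lengths as an offset, a replicate block, leaving out each library, and glmTreat against a log2 fold change of 1. Genes and coordinates were matched by symbol to RefSeq (GRCh38.p14), 9 of 9; overlaps are from GENCODE.

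The 9 members and the gene lists were chosen with earlier results of these data known. Named genes were all members, of each other junction list up to 5 tested genes with the smallest p and a mean of at least 1 CPM, EPCAM, F11R, MARVELD2, CGN and ESAM, and the 5 genes most like the member with the largest change among those with at least 20 counts in each group. Genes completing a count of 5 or fewer (CLDN16, MARVELD3, JAM2, JAM3, CXADR, ZEB1, ZEB2, SNAI2) were added after their values were seen. So were PARD6A, AMOTL1, AMOTL2 and CGNL1, as relatives of genes named by the rule. CDKN2A, CLDN18, CLDN5, GRHL2 and marker genes were named in addition, outside that rule and with their values known. One gene that the rule names is not reported or plotted here; counts of its list include it.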

Additional observations from a re-analysis of the deposited data

How the results depend on the processing

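Over 16 alternatives, 126 values of the 8 tested members were recomputed, of which 114 kept their direction and their side of the threshold, 10 lost their call and 2 changed sign. The changes of sign were those of CLDN12, which was not called, on log2(FPKM + 0.1) (0.0106) and log2(FPKM + 1) (0.0101). OCLN lost its call in 7 alternatives, and CLDN2, CLDN4 and TJP1 only against a log2 fold change of 1. In that test 2 members were higher and 1 lower, 9 other junction genes were higher and 13 lower, and 2105 of all genes were higher and 1453 lower. With a mean of at least 5 CPM required, CLDN3 and CLDN4 were not tested and 1 member was lower.

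When 1 library was left out, 4 to 5 members were higher and 2 lower, 16 to 18 other junction genes were higher and 18 to 20 lower, and 5266 to 5534 genes were higher and 5420 to 5598 lower. The replicate block gave 5 members higher and 2 lower and 5397 genes higher and 5513 lower. No shared deviation was seen between same-numbered libraries: their deviations correlated by 0.018, -0.0248 and -0.00775, and not every library correlated best with its own number. These correlations cannot tell whether same-numbered libraries were handled together. Depth limits CLDN3, CLDN4 and CLDN7, which had at most 32 counts in any library.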
